A study of Homo sapiens with 6 samples.

Results

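The amino acid transporter genes of IKPRAB-36 cells were compared between cells with and without the synthetic progestin medroxyprogesterone acetate (MPA). A gene was included when a probe set carried a single annotated symbol. Once updated to its current RefSeq name, the symbol had to start with SLC1A, SLC3A, SLC6A, SLC7A, SLC36A, SLC38A or SLC43A. This rule gave 62 of the 19775 genes measured on the array. Of these, 56 encode transporters or their heavy chains, 5 are long noncoding RNAs named as antisense to a transporter gene, and SLC7A6OS lies on the strand opposite SLC7A6. The brightest probe set, by its mean over the 6 arrays, stood for each gene, and 39 of the genes had several probe sets. Other family members were not analysed here.

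All arrays came from IKPRAB-36 (IKPRAB36 in the labels), a line of Ishikawa endometrial cancer cells that was stably transfected with progesterone receptors A and B. In both groups the medium contained charcoal-stripped serum, penicillin, streptomycin, hygromycin and neomycin, and the culture lasted 48 h. The 3 control arrays were made from cells without MPA and the 3 MPA arrays from cells with 1 nM MPA. The result holds for a single line that carries receptor transgenes, and the sources used here do not name the promoter that drives them. The sources do not state that the arrays of a group came from separate cultures, so that the p-values measure the spread between these arrays only, which may be technical.

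Amino acids enter cells through families of membrane carriers that differ in their substrates and in the ions they carry along. The SLC7 light chains are exchangers that reach the plasma membrane when they are joined by a disulfide bond to a heavy chain, SLC3A2 (also known as CD98) or SLC3A1. The SLC1, SLC6 and SLC38 families are largely sodium coupled, the SLC36 family includes proton-coupled carriers, and the SLC6 family also holds the carriers of neurotransmitters, taurine, betaine and creatine. In many cancers SLC7A5 with SLC3A2 brings in leucine and other large neutral amino acids, which activate the growth kinase mTORC1.

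The values are signals on the log2 scale made by RMA, so that a difference of 1 is a doubling. They compare arrays for the same probe set and do not rank different genes. Array medians were 5.16 to 5.28, and 16 of the 62 genes were under the median on every array, a range in which low expression and no expression give like signals. FKBP5 and TSC22D3, known steroid receptor targets, were higher in the arrays labelled MPA (mean FKBP5 signal 9.81 in control and 13.36 with MPA). ZBTB16, listed for the same check, was not higher (3.63 in control and 3.52 with MPA) and was under the median on every array. PER1, also listed, was not measured. All 8 epithelial markers were above the array medians and none was called. EPCAM, CDH1 and PAX8 were nevertheless lower on every MPA array (log2 differences -0.54, -0.76 and -0.44). KRT8 and PGR were higher on every MPA array (0.22 and 0.48), and the groups overlapped for KRT18, KRT19 and ESR1. Of the markers of other cell types, 3 of 7 for fibroblasts, 4 of 5 for leukocytes and 3 of 4 for endothelium were under the median on every array, and none was called. The fibroblast markers COL3A1 and COL1A1 were bright in control cells (means 10.49 and 8.97) and lower on every MPA array (-0.53 and -0.81). KDR, a dim endothelial marker, was higher on every MPA array (0.19). The added poly-A controls were dimmer on MPA 3 (mean 6.55) than on the other arrays (7.94 to 8.76). Whether this bears on the results was not tested beyond leaving that array out.

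Of the 62 genes, 5 were lower with MPA, namely SLC3A1, SLC7A5, SLC38A11, SLC6A16 and SLC3A2, and 2 were higher, namely SLC6A6 and SLC6A3. Both heavy chains were thus among the genes that fell, together with SLC7A5, the light chain for large neutral amino acids. The genes that rose encode the taurine transporter (SLC6A6) and the dopamine transporter (SLC6A3). A gene was called at an adjusted p under 0.05 from limma (Benjamini-Hochberg over 54613 probe sets) and a log2 difference of at least 0.32 in either direction, the fold minimum of the study's methods. By this rule 8.06% of the transporter genes were lower, against 1.16% of all genes, and 3.23% were higher, against 1.74% of all genes. Without MPA 3, 3 genes were lower (SLC3A1, SLC7A5 and SLC3A2) and the same 2 were higher. Without control 1, control 3 or MPA 2 only SLC7A5 was called lower, and without MPA 1 SLC3A1 and SLC7A5 were. Without control 2 all 5 were. Under a stricter test that asks for a change beyond the fold minimum, no gene was called lower. The counts behind these shares are small, and the median log2 difference of the 62 genes was 0.02, the same as that of all genes (0.02). In a cell line a lower signal can come from less RNA per cell or from fewer cells that express the gene, and these cannot be told apart here.

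**Figure D1:**
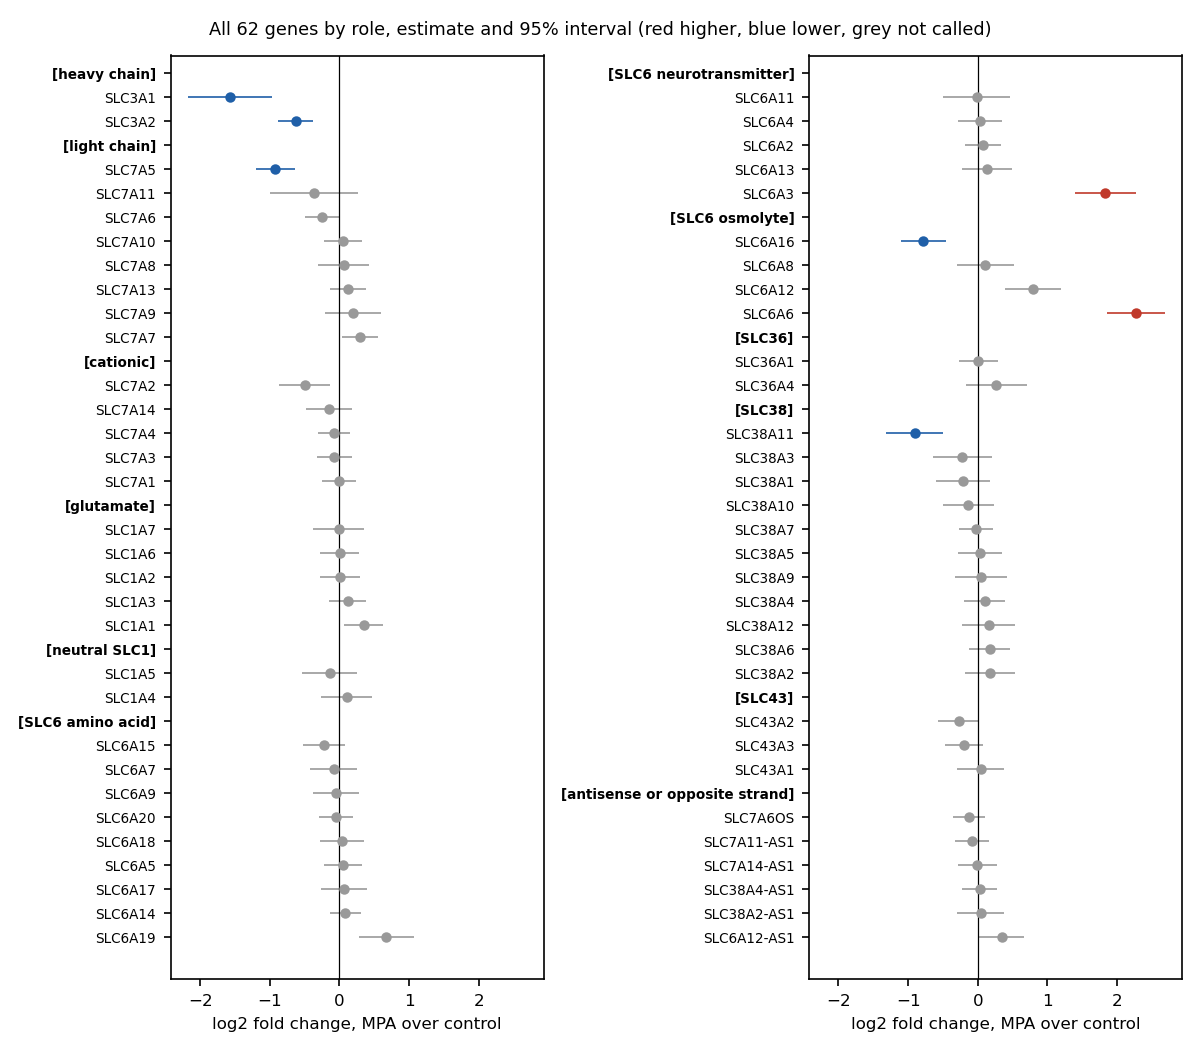
Log2 fold change of MPA over control for all 62 genes, grouped by role, with its 95% interval from limma (3 arrays per group). Red marks the 2 genes called higher, blue the 5 called lower and grey the 55 that were not called, most of which lie close to 0.

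Both heavy chains were lower in cells with MPA. SLC3A2, the partner of most SLC7 light chains, had signals of 10.67, 10.52 and 10.62 on control arrays 1 to 3 and of 9.92, 9.89 and 10.12 on MPA arrays 1 to 3. Every MPA array was below every control array, and the arrays of a group lay close together. SLC3A2 fell by 0.62 on the log2 scale (SE 0.11, adjusted p = 0.0259 from limma), with control 1.54 times MPA. The call was lost without control 1, control 3, MPA 1 or MPA 2, with adjusted p-values up to 0.151, while the difference itself stayed between -0.70 and -0.58 in all 6 cases. Over the whole array, fewer probe sets were called lower without any of these arrays (156 to 279, against 444 with all arrays).

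SLC3A1, also known as rBAT, is the heavy chain of the cystine and cationic amino acid exchanger SLC7A9. Its signals were 7.79, 7.45 and 7.62 on the control arrays and 6.53, 6.25 and 5.38 on the MPA arrays. The groups did not overlap, and MPA 3 was well below the other MPA arrays, so that the spread was wider with MPA (SD 0.60) than in control cells (SD 0.17). SLC3A1 fell by 1.57 on the log2 scale (SE 0.27, adjusted p = 0.0213), the largest decrease among the 62 genes, and by 1.23 without MPA 3 (adjusted p = 0.00692). The call was lost without control 1, control 3 or MPA 2 (adjusted p up to 0.116). The other probe sets of the gene were under the median on every array and differed by 0.11 and -0.01, and with all probe sets averaged the difference was -0.49 (adjusted p = 0.0685).

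Among the 8 light chains, 1 fell and none rose. SLC7A5, known as LAT1, had signals of 11.89, 11.69 and 11.79 on the control arrays and of 10.81, 10.73 and 11.06 on the MPA arrays. The groups were clearly apart, with a gap wider than the range within either. SLC7A5 fell by 0.92 on the log2 scale (95% interval -1.20 to -0.64, adjusted p = 0.00633), with control 1.90 times MPA. It was the only one of the 5 lower genes that stayed called with each array left out in turn (adjusted p 0.00465 to 0.0491). Under the treat test of limma, which asks for a change beyond the fold minimum, it was not called (adjusted p = 0.0591), and neither was any other lower gene. SLC7A5 has pseudogene copies, SLC7A5P1 and SLC7A5P2. Probe sets annotated to several symbols were not used, and whether the probe set of SLC7A5 also binds those copies was not tested.

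The other light chains did not pass the test. SLC7A7, which exchanges cationic for neutral amino acids, was dim on every array, with 4.76, 4.79 and 4.79 in control cells and 5.07, 4.92 and 5.24 with MPA. Its groups did not overlap, but the difference of 0.29 had an adjusted p of 0.395. SLC7A6, a relative of SLC7A7, differed by -0.25 (adjusted p = 0.488), again without overlap. SLC7A11, which takes up cystine for glutathione synthesis, differed by -0.36 with wide spread (SE 0.28, adjusted p = 0.788), and control 2 was high at 10.18 against 9.20 and 9.21 on the other control arrays. The log2 differences of SLC7A8, SLC7A9, SLC7A10 and SLC7A13 ranged from 0.05 to 0.20. Of the 6 light chains measured that pair with SLC3A2, SLC7A5 was thus the 1 that was called.

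**Figure D2:**
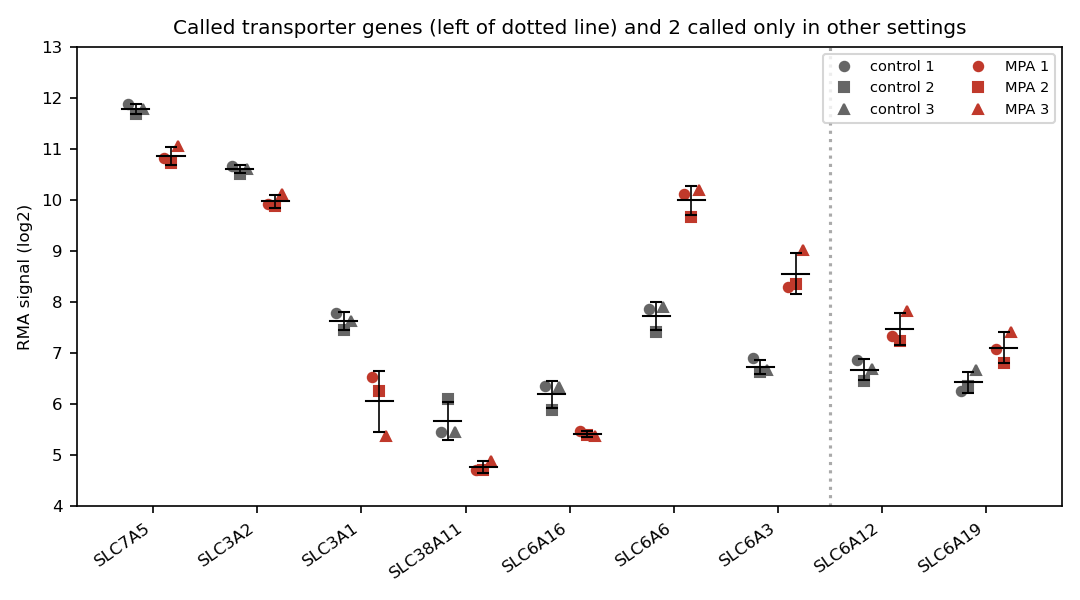
RMA signal (log2) on each array for the 7 called genes and, right of the dotted line, for SLC6A12 and SLC6A19; grey symbols are control and red symbols MPA arrays, horizontal bars are group means and vertical bars SD (n = 3). In all 9 genes the control and MPA arrays do not overlap, and MPA 3 is the lowest array for SLC3A1 and the highest for SLC6A3.

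Of the 11 SLC38 genes, sodium-coupled carriers of neutral amino acids, 1 fell. SLC38A11, a member with little known function, had signals of 5.46, 6.10 and 5.45 on the control arrays and of 4.70, 4.70 and 4.89 on the MPA arrays. It lay above the array medians in control cells and below them with MPA, and control 2 was higher than the other control arrays. SLC38A11 fell by 0.91 on the log2 scale (SE 0.18, adjusted p = 0.0442), and the call held with control 2 left out (-0.69, adjusted p = 0.0315) but with no other array left out (adjusted p 0.0725 to 0.202).

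SLC38A2, the amino acid responsive carrier SNAT2, had 11.25, 11.82 and 11.49 in control cells and 11.80, 11.69 and 11.59 with MPA. The groups overlapped and the difference of 0.17 (SE 0.15) did not pass the test. SLC38A1, a glutamine carrier, differed by -0.21 (adjusted p = 0.815).

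SLC6A16, an orphan transporter of the SLC6 family whose substrate is not known, was also lower. Its signals were 6.34, 5.89 and 6.34 on the control arrays and 5.48, 5.39 and 5.36 on the MPA arrays. The MPA arrays were nearly equal and all below the lowest control array, control 2. SLC6A16 fell by 0.78 on the log2 scale (SE 0.14, adjusted p = 0.0300), and by 0.93 without control 2 (adjusted p = 0.00653). With any other array left out the call was lost (adjusted p 0.0761 to 0.170). Its second probe set was under the array medians and differed by -0.17.

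The promoter sequences of the lower genes are shown because these genes share a direction and because SLC7A5 and SLC3A2 form 1 transporter. They are the 250 bases before a transcription start in RefSeq (GRCh38.p14), which had entries for 47 of the 62 genes. The windows are chr16:87869508-87869757 on the minus strand for SLC7A5, chr11:62881449-62881698 on the plus strand for SLC3A2 (1 of its 3 entries), chr2:164955526-164955775 on the minus strand for SLC38A11 and chr19:49325192-49325441 on the minus strand for SLC6A16. SLC3A1, SLC6A3 and SLC6A6 are named only. Capitals mark matches, on either strand, to the steroid receptor core TGTTCT, the E-box CACGTG or the core of the amino acid response element, TGATGNAA, and no printed window held more than 1 match.
SLC7A5: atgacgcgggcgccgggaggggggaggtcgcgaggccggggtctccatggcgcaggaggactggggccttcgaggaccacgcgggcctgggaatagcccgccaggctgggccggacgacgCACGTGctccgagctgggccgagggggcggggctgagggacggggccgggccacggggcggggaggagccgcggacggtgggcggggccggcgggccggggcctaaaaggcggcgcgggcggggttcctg
SLC3A2: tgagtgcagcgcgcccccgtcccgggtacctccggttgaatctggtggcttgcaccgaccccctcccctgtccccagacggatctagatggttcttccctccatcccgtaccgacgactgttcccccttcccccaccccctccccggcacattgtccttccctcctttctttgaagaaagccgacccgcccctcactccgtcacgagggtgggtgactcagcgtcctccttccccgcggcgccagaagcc
SLC38A11: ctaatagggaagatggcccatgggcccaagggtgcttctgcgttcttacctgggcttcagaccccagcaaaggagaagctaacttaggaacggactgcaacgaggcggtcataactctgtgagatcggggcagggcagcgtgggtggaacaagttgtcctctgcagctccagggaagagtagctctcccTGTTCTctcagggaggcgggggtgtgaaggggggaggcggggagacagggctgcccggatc
SLC6A16: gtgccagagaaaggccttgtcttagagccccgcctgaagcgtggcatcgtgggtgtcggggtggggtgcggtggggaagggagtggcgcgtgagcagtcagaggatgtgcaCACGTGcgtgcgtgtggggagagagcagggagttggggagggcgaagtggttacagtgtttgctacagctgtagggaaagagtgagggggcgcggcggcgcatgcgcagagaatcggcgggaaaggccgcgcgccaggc
SLC7A5 held an E-box 130 bases before the start and SLC6A16 an E-box 139 bases before it, while SLC38A11 held TGTTCT 61 bases before the start. The SLC3A2 windows held none of these letters, also in the entries not printed. Among all 35116 promoters of this length, 6.34% held CACGTG, 12.4% TGTTCT and 3.14% TGATGNAA, and among the 70 windows of the transporter genes 10, 4 and 2 did. A match describes the letters of the window and is not a binding site shown in these cells.

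The genes that rose both belong to the SLC6 family. SLC6A6, the taurine transporter TauT, had signals of 7.87, 7.41 and 7.90 on the control arrays and of 10.12, 9.67 and 10.20 on the MPA arrays. The lowest MPA array was far above the highest control array. SLC6A6 rose 4.82-fold (95% interval 3.61 to 6.45, log2 difference 2.27, adjusted p = 0.000492), the largest change in either direction among the 62 genes, and was called with each array left out (adjusted p 0.000918 to 0.00598). Of its other 4 probe sets, 2 were also called (1.80 and 0.84 on the log2 scale) and 2 were not (0.23 and 0.13). The mean over all its probe sets gave a smaller difference, 1.06 (adjusted p = 0.00309).

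SLC6A3, the dopamine transporter DAT of neurons, had signals of 6.89, 6.63 and 6.67 on the control arrays and of 8.30, 8.36 and 9.01 on the MPA arrays. MPA 3 was the highest array, and the other MPA arrays were still well above the control arrays. SLC6A3 rose 3.55-fold (95% interval 2.62 to 4.81, adjusted p = 0.00188), and its log2 difference of 1.83 was 1.60 without MPA 3 (adjusted p = 0.00108). The rise rests on 1 probe set, the only one used for this gene. The other neurotransmitter carriers measured, SLC6A2, SLC6A4, SLC6A11 and SLC6A13, differed by -0.02 to 0.13 and were not called.

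SLC6A12 and SLC6A19 were above all control arrays on every MPA array but did not pass the test. SLC6A12, a carrier of betaine and GABA, had 6.87, 6.46 and 6.68 in control cells and 7.33, 7.24 and 7.82 with MPA, a difference of 0.80 (SE 0.18, adjusted p = 0.0722). SLC6A19, a carrier of neutral amino acids in kidney and intestine, had 6.26, 6.36 and 6.66 in control cells and 7.07, 6.81 and 7.42 with MPA, a difference of 0.67 (SE 0.17, adjusted p = 0.135). MPA 3 was the highest array for both, and without it the differences were 0.62 and 0.52. The other probe sets of SLC6A19 differed by 0.50 and 0.36, with no overlap of the groups and no call. SLC6A12 has 1 probe set, which averaging the probe sets of each gene leaves unchanged. In that fit, over 19775 genes in place of 54613 probe sets, SLC6A12 was called by limma (adjusted p = 0.0423). SAM, the test named in the study's methods, called both genes, which made 4 of the 62 genes higher against 3.1% of all genes by that test, and called the same 5 genes lower against 2.13% of all genes.

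**Figure D3:**
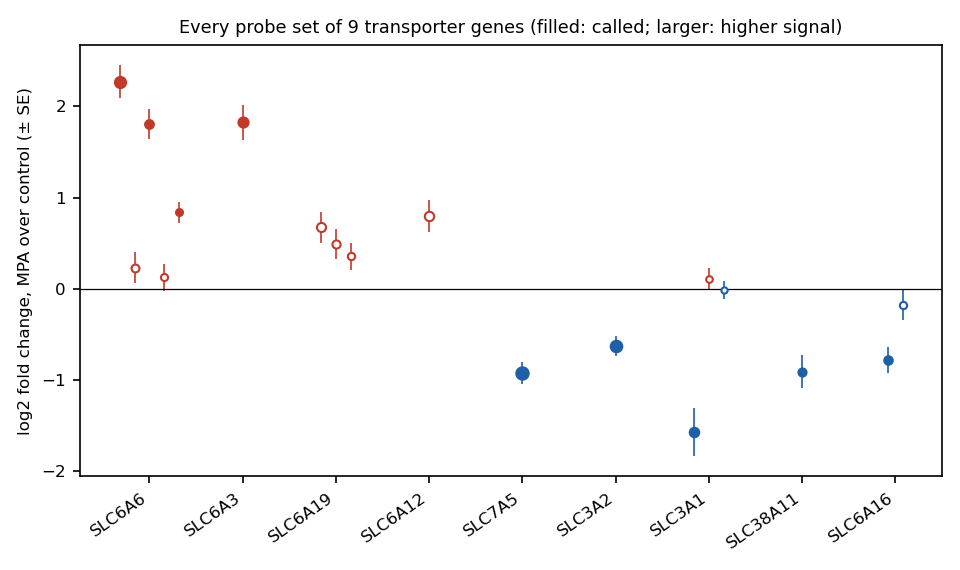
Log2 fold change of MPA over control (± SE, 3 arrays per group) for every probe set of the 7 called genes and of SLC6A12 and SLC6A19; filled symbols are called, red is above 0, blue is below 0, and larger symbols have a higher mean signal. SLC6A6 has 3 called probe sets of 5, whereas SLC3A1 and SLC6A16 have 1 each.

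In the other role groups no gene was called. The carriers of the SLC7 family for cationic amino acids, and their relatives, differed by -0.50 to -0.01 over 5 genes. SLC7A2, an arginine and lysine carrier, had 7.14, 7.75 and 7.53 in control cells and 6.95, 7.07 and 6.90 with MPA. These groups did not overlap, but the difference of -0.50 had an adjusted p of 0.257, and its other probe sets, under the array medians, differed by -0.05 and 0.22. SLC7A1, the widely expressed arginine carrier, had 12.22, 12.09 and 12.23 in control cells and 12.23, 12.04 and 12.25 with MPA. The arrays of SLC7A1 interleaved, and the difference was -0.01 (95% interval -0.26 to 0.24).

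The 5 glutamate carriers of the SLC1 family differed by -0.01 to 0.35. SLC1A1, the epithelial glutamate carrier EAAT3, had 8.21, 8.35 and 8.32 in control cells and 8.83, 8.45 and 8.63 with MPA. Its MPA arrays were all higher, with an adjusted p of 0.338 for the difference of 0.35, and a second probe set differed by 0.38. SLC1A5, the glutamine exchanger ASCT2, had 10.13, 9.89 and 10.03 in control cells and 9.72, 9.64 and 10.27 with MPA. MPA 3 was the highest of all its arrays and the other MPA arrays were the lowest, so that the difference of -0.14 (95% interval -0.54 to 0.26) was within the spread. Without MPA 3 it was -0.34 (adjusted p = 0.294). Its relative SLC1A4 differed by 0.10.

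Among the SLC36 and SLC43 genes the groups overlapped for every gene. SLC36A1, which releases amino acids from lysosomes, had 8.08, 7.70 and 7.94 in control cells and 7.90, 7.86 and 7.99 with MPA. SLC36A4 had 6.81, 7.41 and 7.01 in control cells and 7.40, 7.60 and 7.02 with MPA. Both overlapped between the groups, with differences of 0.01 and 0.27 that were not called. The difference of SLC36A4 was 0.43 without MPA 3 and 0.13 to 0.43 over all arrays left out.

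For SLC43A1, the large neutral amino acid carrier LAT3, the signals were 7.26, 6.83 and 7.04 in control cells and 7.005, 6.961 and 7.294 with MPA. For SLC43A2, its relative LAT4, they were 6.62, 6.19 and 6.49 in control cells and 6.13, 6.20 and 6.15 with MPA. The MPA arrays of SLC43A2 were below the control arrays except that MPA 2 was just above control 2, with a difference of -0.27 and an adjusted p of 0.549. SLC6A17, an amino acid carrier of synaptic vesicles, had 6.84, 7.06 and 6.81 in control cells and 7.06, 6.70 and 7.16 with MPA, a difference of 0.07 with overlapping groups.

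The 5 noncoding RNAs and SLC7A6OS were not called. SLC6A12-AS1, named as antisense to SLC6A12, had 3.42, 3.56 and 3.50 in control cells and 3.85, 3.58 and 4.08 with MPA, under the median on every array. Its groups just failed to overlap, with a difference of 0.34 and an adjusted p of 0.432, and the difference was 0.22 without MPA 3, its highest array. SLC7A6OS had 7.72, 7.66 and 7.58 in control cells and 7.58, 7.50 and 7.50 with MPA, a difference of -0.13 with an adjusted p of 0.797.

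In all, the arrays of the groups did not overlap for 15 of the 62 genes, 7 higher and 8 lower with MPA. This is 24.2% of them, against 16.9% of all genes. The 55 genes that were not called had adjusted p-values of 0.0722 to 0.999, and 49 of them differed by less than 0.3 in either direction. Of these 55, 6 had an unadjusted p under 0.05, namely SLC6A12, SLC6A19, SLC7A2, SLC1A1, SLC7A7 and SLC6A12-AS1. With 3 arrays in each group the smallest two-sided p of an exact permutation test is 0.1, so that no single gene could pass by that test.

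**Figure D4:**
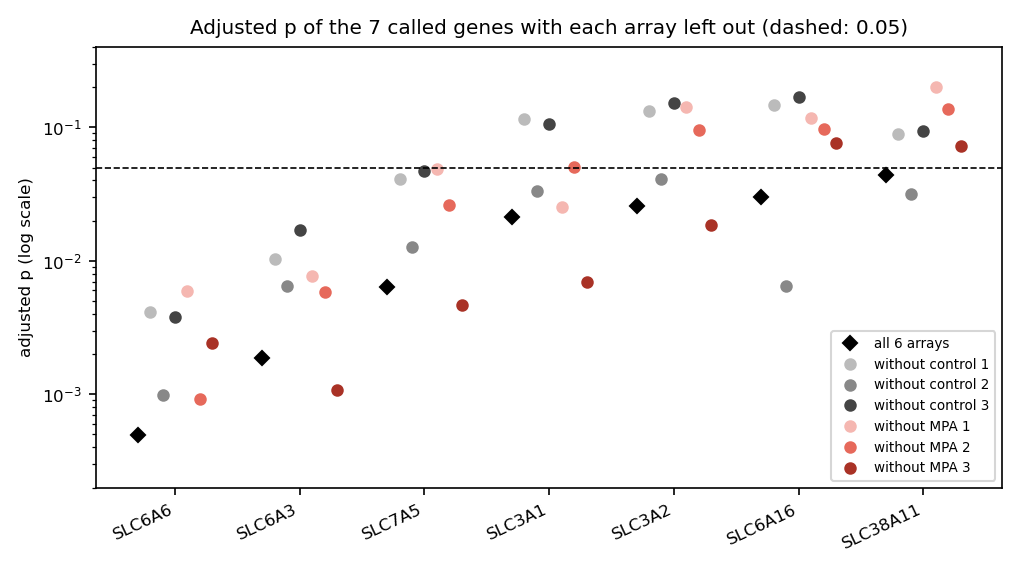
Adjusted p from limma, on a log axis, for the 7 called genes with all 6 arrays (diamonds) and with each array left out in turn (circles, grey for control and red for MPA); the dashed line is 0.05. SLC6A6, SLC6A3 and SLC7A5 stay under the line in every case. Among the circles of SLC6A16 and SLC38A11, only that without control 2 lies under the line.

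Other genes of amino acid transport, sensing and metabolism were read from 5 lists. Beside them, 1.74% of all genes were called higher and 1.16% lower, and the median log2 difference of all genes was 0.02. The counts called in each list are small and are not read as results about the list. Among 15 other carriers of amino acids and related compounds, 2 rose and none fell, with a median log2 difference of 0.10. These were SLC22A5, the carnitine transporter (2.34-fold, adjusted p = 0.00134), and SLC22A4, a carrier of ergothioneine (1.78-fold, adjusted p = 0.00366). Neither carries amino acids of proteins as its main substrate. None of 15 mitochondrial carriers was called (median 0.06).

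Of 34 genes of mTOR complex subunits and of amino acid sensing upstream of mTORC1, 1 fell, none rose and the median was -0.01. The gene was DEPTOR, an inhibitory subunit of the mTOR complexes, with 10.52, 10.48 and 10.64 on the control arrays and 9.29, 9.06 and 9.11 on the MPA arrays. Its groups were far apart, and it fell by 1.39 on the log2 scale (SE 0.11, adjusted p = 0.000457).

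Of 27 factors and enzymes known to control these transporters, 1 rose and 2 fell, with a median of -0.08. SGK1, a kinase that promotes the surface expression of several SLC1 and SLC6 carriers, rose 15.1-fold (adjusted p = 2.33e-06), from 6.58 ± 0.14 to 10.50 ± 0.039 (SD, n = 3). ATF3, a stress-induced transcription factor, fell by 1.01 (adjusted p = 0.00294). CD44, a variant form of which stabilizes SLC7A11 at the membrane, fell by 0.71 (adjusted p = 0.00738). Which form of CD44 its probe set measures was not tested. With all probe sets of the gene averaged, ATF3 was not called (adjusted p = 0.181). CD44 was not called without control 3 or MPA 1 (adjusted p up to 0.0670). ATF4, the factor that induces SLC7A5 and SLC3A2 when amino acids are short, and its target ASNS were named after their values were seen. They were lower on every MPA array and did not pass the test, with differences of -0.29 (adjusted p = 0.282) and -0.40 (adjusted p = 0.114). ATF5, DDIT3, TRIB3 and CHAC1 of the same list differed by -0.29, -0.08, -0.09 and 0.33, with overlapping groups, and were not called. Also uncalled but lower on every MPA array were MYC, MYCN and SGK2 of this list (-0.33, -0.48 and -0.21). NEDD4 and HIF1A were higher on every MPA array and were not called (1.30 and 0.53). Whether ATF4 or any other gene of the list bears on SLC7A5 or SLC3A2 here was not tested.

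Of 26 enzymes of glutamine, serine, glycine, cysteine and branched-chain amino acid metabolism, 1 rose and none fell, although the median was -0.16. GLUL, which makes glutamine from glutamate, had 10.36, 10.04 and 10.40 on the control arrays and 11.55, 11.23 and 11.33 on the MPA arrays. Every MPA array was above every control array, and GLUL rose 2.15-fold (adjusted p = 0.00473).

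**Figure D5:**
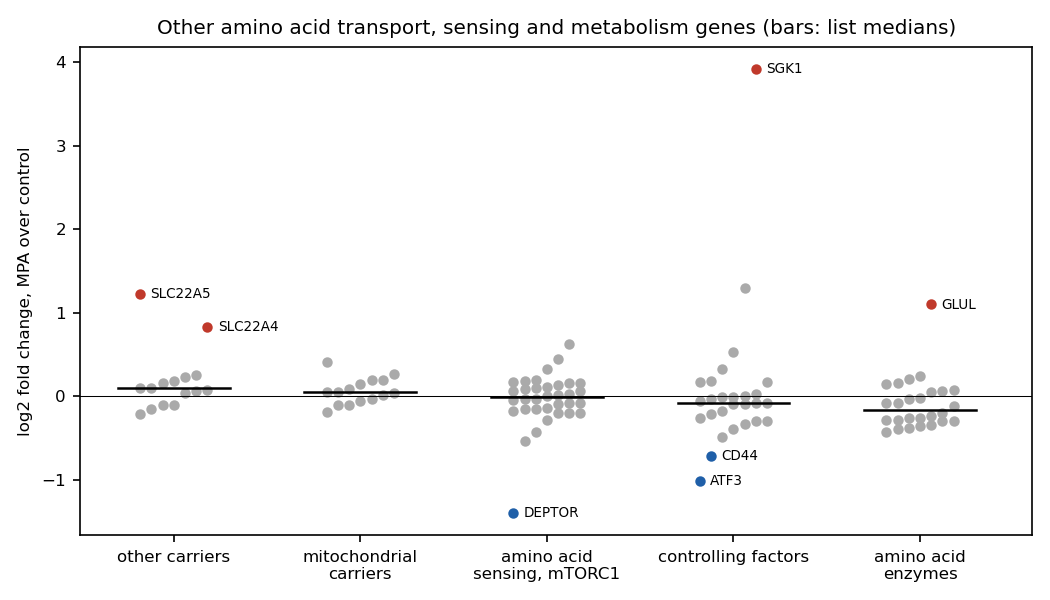
Log2 fold change of MPA over control for each measured gene of the 5 lists, 1 point per gene; red is called higher, blue called lower and grey not called, and the bars are the list medians. SGK1 (3.92) stands far above the other points, and the medians lie between -0.16 and 0.10.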

How the data were processed

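Total RNA of untreated and MPA-treated IKPRAB-36 cells was hybridized to 6 Affymetrix U133 Plus arrays. The log2 signals deposited by the authors were made with RMA and are background corrected, normalized between arrays and summarized per probe set, and they were used as they stand. The sources used here do not give the version of that software. Of 54675 probe sets, 62 Affymetrix controls were left out and 54613 were tested. The platform annotation gave 1 symbol for 41091 of them, several for 1801 and none for 11721, and names were taken from the first kind alone. Where the gene identifier matched RefSeq (41037 probe sets), the current symbol was used in place of the annotated one. Arrays of one group correlated at 0.987 to 0.997, and the number of arrays limits the precision.

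The groups of the labels were compared with limma 3.58.1 in R 4.3.3 (two-sided tests from lmFit and eBayes without covariates, adjusted by Benjamini-Hochberg over all probe sets tested). The fold minimum of 1.25 is that of the study's methods. SAM, also named there, was coded from its published description, with delta 0.53 and 20 relabelings. Tables and figures were made with Python 3.11.15. The steps were tested on simulated data.

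The transporter genes, the other lists and the roles were chosen with earlier results of these data known. Values on every array are given for genes that were called, for SLC7A5 and SLC3A2, for genes with an unadjusted p under 0.05, for the gene with the largest difference and the one with the highest mean signal in each role group, and for genes called in an alternative other than leaving out an array. From the other lists, called genes are named. Genes named outside this rule, such as ATF4 and ASNS, were chosen after their values were seen, except that every remaining transporter gene is covered by a count or range. Some listed genes were not analysed here. Promoter sequences come from RefSeq, GRCh38.p14, without the bases after the start.

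The alternatives were SAM, the treat test of limma, a block for the replicate number, a variance prior that follows intensity, leaving out dim probe sets, averaging the probe sets of each gene, scaling on 10 housekeeping genes, quantile normalization once more, dropping the fold minimum or raising it to 2-fold, and leaving out each array in turn.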

Additional observations from a re-analysis of the deposited data

How the results depend on the processing

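The count of transporter genes called higher, 2, was 3 with the probe sets of each gene averaged (SLC6A12 added) and 4 with SAM (SLC6A12 and SLC6A19 added), and was 2 with each array left out. The count of lower genes, 5, was 0 under limma's treat test, 1 with a minimum of 2-fold (SLC3A1), 3 with probe sets averaged (SLC7A5, SLC3A2 and SLC38A11), and 1 to 5 with arrays left out. SLC6A12, SLC7A5, SLC3A2 and SLC38A11 have 1 probe set each, so averaging could not change their values. The lower genes with several probe sets, SLC3A1 and SLC6A16, lost the call. Without control 1, control 3 or MPA 2 only SLC7A5 was called lower, without MPA 1 SLC3A1 and SLC7A5, and without MPA 3 these and SLC3A2. The treat test, which asks for a change beyond the minimum fold, gave adjusted p-values of 0.0591 for SLC7A5 and 0.0765 for SLC3A1. With a block for the replicate number, 4 genes were higher, since SLC6A12 (adjusted p = 0.0085) and SLC6A19 (adjusted p = 0.00999) were added, and 5 were lower. The numbers were not taken to pair the arrays, because the deviations of arrays with the same number correlated at -0.02, 0.52 and 0.33, and control 1 correlated best with MPA 3 (0.35). Arrays with unlike numbers correlated at -0.48 to 0.35. The labels do not say whether equal numbers mark a shared batch. No called gene changed direction in any alternative. Differences of uncalled genes near 0 changed sign. SLC36A1 was -0.047 with housekeeping scaling, -0.020 after quantile normalization once more, and -0.095 to 0.096 with arrays left out. SLC43A1 was -0.014 with housekeeping scaling and -0.066 to 0.15 with arrays left out, SLC6A17 was -0.024 to 0.21 with arrays left out, and SLC7A1 was 0.0045 with probe sets averaged and -0.053 to 0.059 with arrays left out. Among the 54613 probe sets, the counts were 663 higher and 444 lower, against 567 and 550 with housekeeping scaling, 1208 and 825 with the replicate block, 1313 and 868 with SAM and 318 and 137 with the treat test. Without control 1, control 2 and control 3 they were 413 and 195, 725 and 465, and 362 and 156. Without MPA 1, MPA 2 and MPA 3 they were 353 and 176, 460 and 279, and 647 and 420. The cause of these differences was not tested.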

Other observations

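SLC5A3, the sodium-coupled carrier of myo-inositol, is not one of the families above and was looked up after the values of SLC6A6 and SLC6A12 had been seen, since these carry other osmolytes. Its signals were 8.93, 9.54 and 8.97 on the control arrays and 10.82, 10.94 and 9.93 on the MPA arrays. MPA 3 was lower than the other MPA arrays but still above every control array, and without it the log2 difference was 1.73 (adjusted p = 0.00574). SLC5A3 was 2.67-fold higher with MPA (log2 difference 1.42, SE 0.28, adjusted p = 0.0410 from limma). The call was lost without control 1, control 3, MPA 1 or MPA 2 (adjusted p up to 0.197), with housekeeping scaling (0.0554), after quantile normalization once more (0.0526) and under the treat test (0.162). NFAT5, the transcription factor that induces osmolyte carriers in hypertonic medium, differed by 0.03 on the log2 scale (adjusted p = 0.989). This is its RNA signal, and whether NFAT5 bears on these carriers here was not tested.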
